A study of Mus musculus with 31 samples.

Results

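The collagen genes outside collagen IV are the rows of the authors' normalized table whose symbol is Col, a number, the letter a and a number, without Col4a1 to Col4a6. There were 34 of them among the 20784 rows of that table, and all 34 were matched by Ensembl identifier to the raw counts. The measured cells were 31 single neurons of acute mouse brainstem slices, 18 lateral olivocochlear (LOC) neurons of the lateral superior olive and 13 medial olivocochlear (MOC) neurons from the ventral nucleus of the trapezoid body. According to the series description, both groups came from ChAT-IRES-Cre; tdTomato mice, in which cells that make choline acetyltransferase turn red, while the labels give the genotype of all samples as wild-type. The sources used here give neither the age nor the number of the animals. Each red neuron was patch-clamped, its contents were drawn into the pipette, and its RNA was made into a Smart-seq2 library, a full-length cDNA library without molecular identifiers, in which any other RNA drawn into the pipette is read too.

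Olivocochlear neurons are cholinergic cells of the brainstem whose axons run to the cochlea, where LOC axons end mainly on auditory nerve fibres below the inner hair cells and MOC axons on outer hair cells. Collagens are extracellular proteins of 3 chains wound into a helix. The fibrillar collagens form the rope-like fibrils of connective tissue, the FACIT collagens (fibril-associated, with an interrupted helix) sit on or near such fibrils, the transmembrane collagens stay anchored in the cell that makes them, and the others build filaments, networks or the surface of basement membranes. In the brain most collagen is made by cells of vessels and meninges, and some collagens are also made by neurons. Collagen XIX, a FACIT collagen whose only chain is encoded by Col19a1, is made by subsets of neurons in mouse forebrain, where it is needed for inhibitory nerve endings to form.

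The libraries held 356412 to 1404896 counts per LOC cell and 598028 to 2627174 counts per MOC cell. Levels are counts per 1000000 (CPM) of a library, or of the summed counts of a group with an exact 95% Poisson interval. A count of 0, taken to allow up to 3 counts, corresponds to 2.14 to 8.42 CPM in single LOC cells and 1.14 to 5.02 CPM in single MOC cells. Reads are not independent molecules, so all intervals cover counting error only. Since no label names an animal, a group counts as 1 sample, no difference was tested, and every SD is the spread between the cells of a group. The size rule for a group asked for a ratio of summed CPM of 2 or more to the other group, for a lead of 1 or more in mean log2(CPM + 1), and for a read in no fewer than 25% of the group's cells. Of 6 markers of cholinergic neurons, 2 passed for LOC and 0 for MOC, and of 10 markers of microglia, 0 passed for LOC and 6 for MOC. The 3 defining cholinergic genes Chat, Slc18a3 and Slc5a7 together had 10 or more reads in 14 of 18 LOC cells and 8 of 13 MOC cells, and fewer than 10 in the other 4 LOC and 5 MOC libraries.

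Of the 34 collagen genes, 3 met the size rule in LOC cells, the FACIT genes Col19a1 and Col16a1 and the fibrillar gene Col11a2, and 0 met it in MOC cells. Of all 17754 measured genes, 6.07% did so in LOC and 5.67% in MOC, so the count of 3 (8.82% of the members) is close to the background. Under a stricter rule, a ratio of 4 and a mean difference of 2, Col19a1 and Col16a1 still met it in LOC, as did 0.755% of all measured genes, and 0 members met it in MOC, against 0.338% of all genes. The other 31 members lay between −0.66 and 0.98 in LOC minus MOC mean log2(CPM + 1), with a median of −0.17. Over all 34 the median was −0.16, beside −0.07 over all measured genes, and it was above 0 with a pseudocount of 10 (0.02), with thinned libraries (0.10), with summed counts (0.32), over the 18 members with 5 reads in enough cells (0.12) and over cells with 10 or more cholinergic reads (0.04). The mean difference was above 0 for 14 members (41.2%) and for 45.7% of all measured genes.

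**Figure D1:**
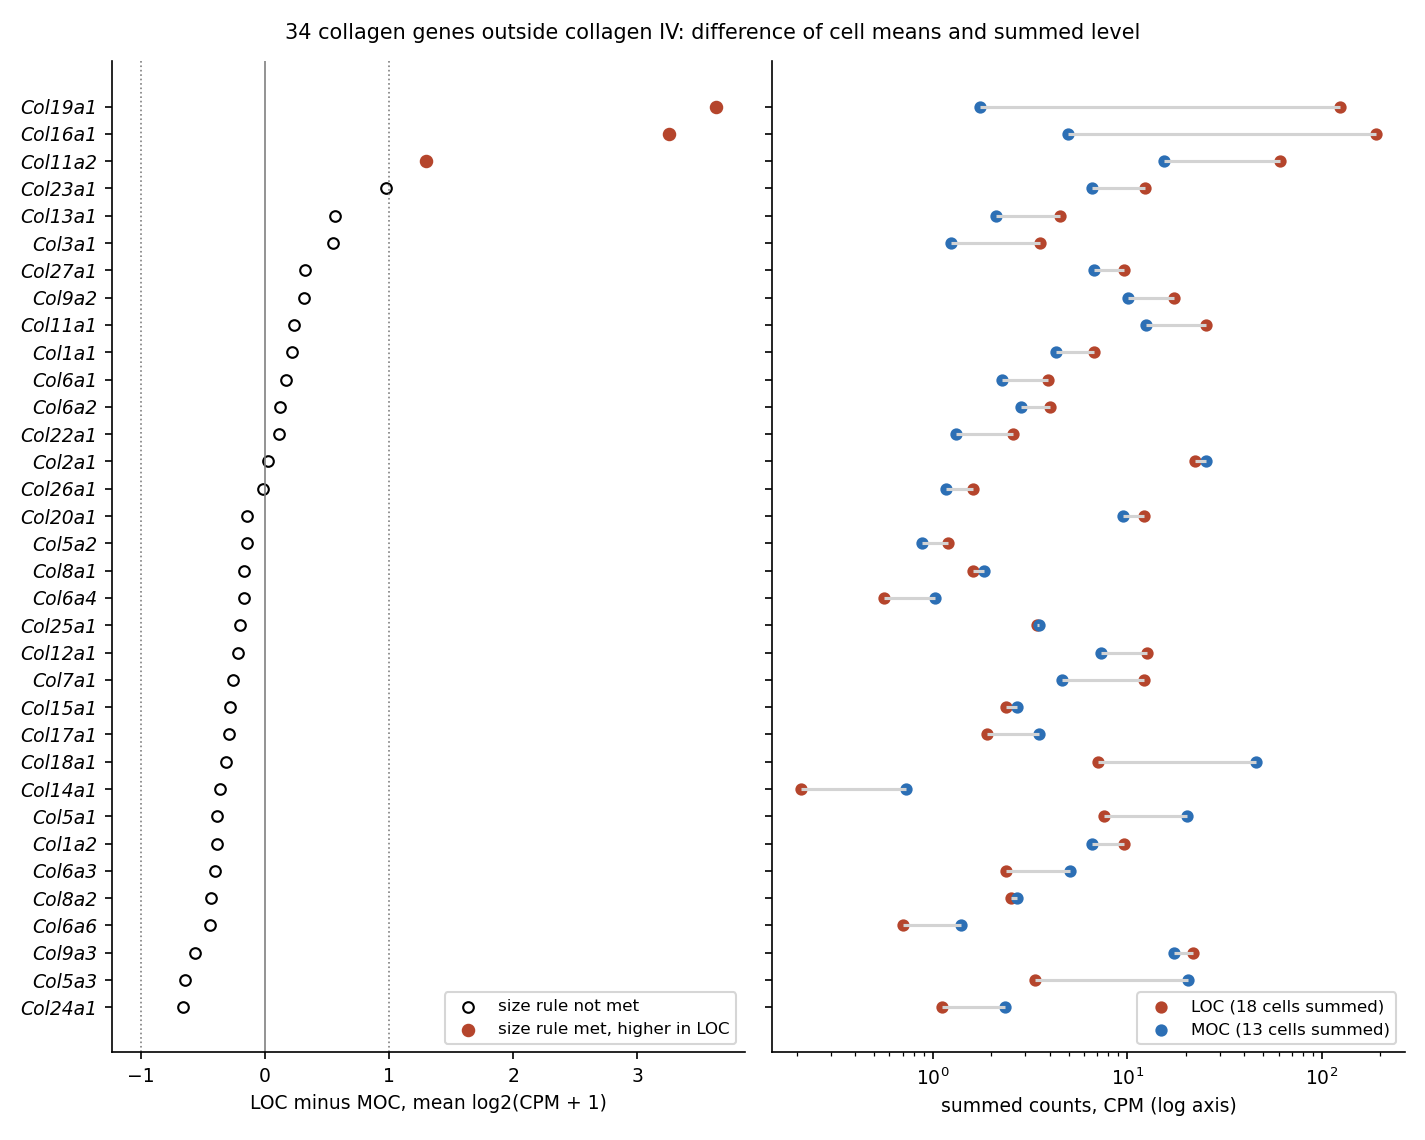
Left, LOC minus MOC mean log2(CPM + 1) for each of the 34 genes, with dotted lines at the rule's difference of 1 in either direction; right, the CPM of the summed counts of 18 LOC cells (red) and 13 MOC cells (blue) on a log axis. Col19a1 at 3.63, Col16a1 at 3.25 and Col11a2 at 1.30 stand to the right of the line, and the other 31 genes lie between −0.66 and 0.98.

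Col19a1 (ENSMUSG00000026141; GRCm38 chr1:24261890-24587472, minus strand) had a lowest level of 0, a median of 67.3 and a highest level of 631 CPM in LOC cells, against 0, 1.10 and 16.7 CPM in MOC cells. In 11 of the 18 LOC cells the level was above that of the highest MOC cell, and the groups overlapped only at the low end, since 5 LOC cells (2, 6, 14, 16 and 17) and 6 MOC cells had no read. The summed counts came to 124 CPM in LOC (1766 counts, interval 118 to 130), against 1.76 CPM in MOC (24 counts, 1.13 to 2.62), a ratio of 70.4. Over cells, log2(CPM + 1) averaged 4.68 ± 3.40 in LOC and 1.05 ± 1.26 in MOC (SD, n = 18 and 13 cells), a difference of 3.63. This was the largest difference among the members, except with a pseudocount of 10 (2.25, against 2.29 for Col16a1) and without LOC cell 11, where the 2 genes were level at 3.56. It lay between 3.36 and 3.91 with any 1 library left out.

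The share of cells with a single Col19a1 read separated the groups less than the level did. A read was found in 13 of 18 LOC cells (72.2%, Clopper-Pearson 95% limits 46.5 and 90.3), against 7 of 13 MOC cells (53.8%, limits 25.1 and 80.8). At least 5 reads were found in 12 LOC cells and 2 MOC cells, and after each library was thinned to 350000 reads, 13 LOC cells and 3 MOC cells still had a read. The LOC cells were far from uniform. LOC cell 1, the highest, gave 30.8% of all LOC reads of the gene, LOC cells 8 and 13 followed with 343 and 294 CPM, and without cell 1 the summed LOC level was 91.2 CPM. In MOC, cell 5 gave 10 of the 24 reads.

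Col16a1 (ENSMUSG00000040690; chr4:130047840-130099283, plus strand) encodes the only chain of collagen XVI, another FACIT collagen, which is found near fibrils and basement membranes of many tissues. It had 0, 129 and 704 CPM as the lowest, median and highest level in LOC cells, against 0, 2.44 and 29.5 CPM in MOC cells. As with Col19a1, 11 LOC cells stood above the highest MOC cell, while 3 LOC and 4 MOC cells had no read. The summed level was 190 CPM in LOC (2707 counts, 183 to 197), against 4.99 CPM in MOC (68 counts, 3.87 to 6.32), a ratio of 38.1. Over cells, log2(CPM + 1) averaged 5.21 ± 3.51 in LOC and 1.96 ± 1.78 in MOC, a difference of 3.25 (3.0 to 3.56 with any 1 library left out). At least 5 reads were found in 11 LOC cells and 5 MOC cells.

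Col11a2 (ENSMUSG00000024330; chr17:34039437-34066685, plus strand) encodes the alpha 2 chain of collagen XI, a minor fibrillar collagen of cartilage and of the tectorial membrane of the cochlea, and variants of the human gene cause hearing loss. Its lowest, median and highest level were 0, 6.80 and 317 CPM in LOC cells, against 0, 4.82 and 98.0 CPM in MOC cells. The groups overlapped over most of their range, with medians close together and only 5 LOC cells (1, 4, 9, 10 and 13) above the highest MOC cell. The summed level was 61.2 CPM in LOC (57.2 to 65.4), against 15.4 CPM in MOC (13.4 to 17.6), a ratio of 3.98, and MOC cell 8 alone gave 67.6% of the MOC reads (5.58 CPM without it). The cell average of log2(CPM + 1) was 3.65 ± 3.02 for LOC and 2.35 ± 2.13 for MOC, a difference of 1.30. The size rule was no longer met with a pseudocount of 10 (0.90) or with libraries thinned to 350000 reads (0.88), so this gene is near the limit of the rule.

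**Figure D2:**
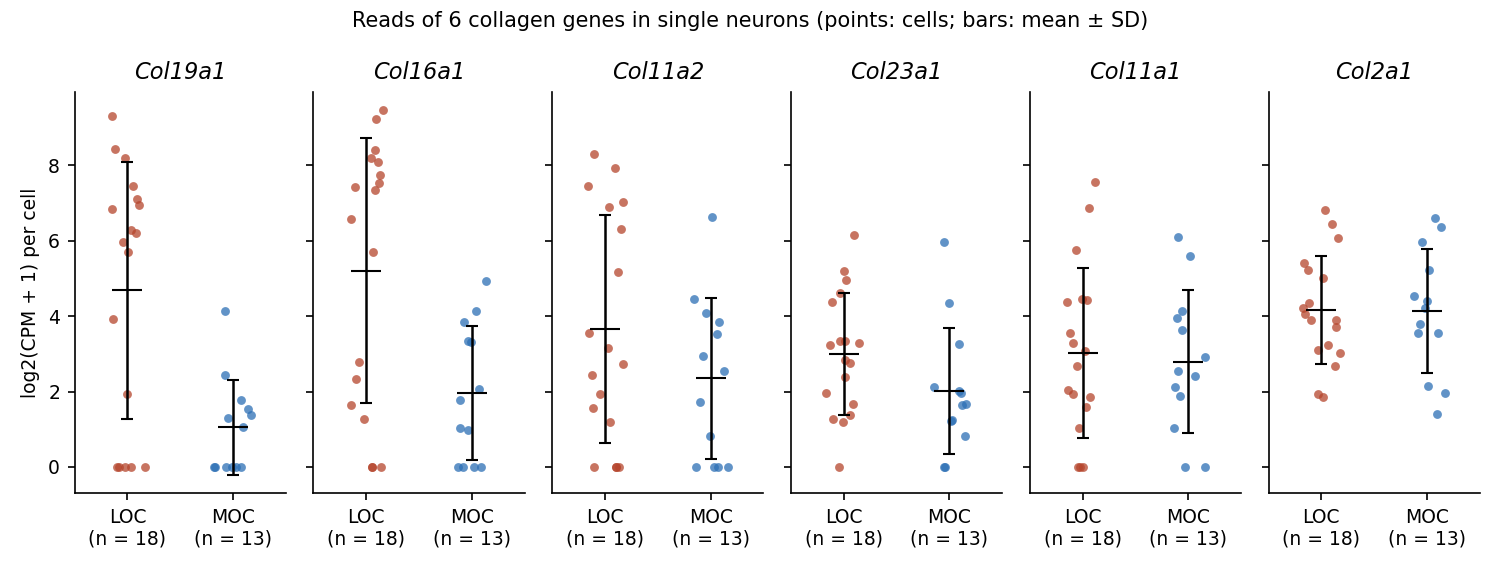
Each point is 1 cell, with log2(CPM + 1) on the vertical axis, LOC (18 cells, red) left of MOC (13 cells, blue), and bars for the mean and SD over cells. Col19a1 and Col16a1 each have 11 LOC cells above the highest MOC cell, Col11a2 has 5, and Col23a1, Col11a1 and Col2a1 overlap throughout most of their range.

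In the GENCODE M21 annotation, none of these 3 genes shares exon bases with another gene. Such overlap matters because these libraries do not keep the strand. The annotation used for the counts is not named in the sources used here, so overlap in it could not be checked. The bases just before their RefSeq starts are shown because Col19a1 and Col16a1 are the members with the widest difference, and Col11a2 the third that met the rule. They are 5′ to 3′ on the gene's strand, from RefSeq GRCm38.p6, with the matches of 5 short motifs, searched on both strands, in capitals. The motifs were the TATA box (TATAAA), the CCAAT box (CCAAT), the GC box (GGGCGG), the core of the cyclic AMP response element (TGACG) and a GATA factor motif (AGATAA), and none of the printed matches overlaps another. For Col19a1 the window of 250 bases was printed only as far as the GENCODE gene begins (215 bases).
Col19a1, chr1:24587473-24587687, minus strand: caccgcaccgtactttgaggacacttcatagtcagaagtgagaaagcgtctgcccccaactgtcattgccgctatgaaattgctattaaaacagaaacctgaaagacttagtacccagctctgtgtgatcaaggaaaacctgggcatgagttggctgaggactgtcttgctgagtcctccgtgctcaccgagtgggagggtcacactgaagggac
Col16a1, chr4:130047590-130047839, plus strand: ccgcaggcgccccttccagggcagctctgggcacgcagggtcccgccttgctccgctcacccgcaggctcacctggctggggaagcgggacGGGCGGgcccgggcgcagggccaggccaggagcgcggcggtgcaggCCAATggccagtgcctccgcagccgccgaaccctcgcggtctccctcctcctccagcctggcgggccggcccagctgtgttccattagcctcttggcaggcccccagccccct
Col11a2, chr17:34038888-34039137, plus strand: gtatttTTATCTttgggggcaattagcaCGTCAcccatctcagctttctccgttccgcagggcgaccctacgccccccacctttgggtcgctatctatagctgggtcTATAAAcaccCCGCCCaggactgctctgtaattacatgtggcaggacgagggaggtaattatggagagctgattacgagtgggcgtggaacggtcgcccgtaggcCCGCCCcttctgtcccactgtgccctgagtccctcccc
The windows differ in composition. That of Col16a1 is rich in G and C (75.6%, with 21 CpG), that of Col11a2 has 57.6% (14 CpG) and that of Col19a1 52.0% (10 CpG), beside a median of 52.4% (quartiles 45.2 and 61.2) over 32851 windows of the same length. The Col16a1 window holds CCAAT 113 bases before the start and GGGCGG 159 bases before it, letters found in 33.8% and 32.7% of all windows. The Col11a2 window holds TATAAA at 143 bases before the start (12.4% of all windows), GGGCGG at 133 and 38, TGACG at 222 (17.8%) and AGATAA at 244 (9.99%). In the whole Col19a1 window no match of the 5 motifs was found, so no motif was shared by all 3 genes. These matches describe letters and say nothing of binding.

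Within LOC cells Col19a1 and Col16a1 were read in largely the same cells. Both had at least 5 reads in 10 of the 18 LOC cells, Col19a1 alone did in 2 (9 and 11), Col16a1 alone in 1 (7), and neither did in 5, while in MOC both did in 1 cell, Col19a1 alone in 1, Col16a1 alone in 4 and neither in 7. Pearson's r of their log2(CPM + 1) was 0.74 over the 31 cells (Spearman's rho 0.72), 0.70 within LOC and 0.29 within MOC. These coefficients describe cells of 2 samples that share a library for both genes, and carry no test. Col11a2 followed them less closely, with r of 0.40 to Col19a1 and 0.42 to Col16a1 within LOC. All 3 genes had at least 5 reads in 7 LOC cells and 0 MOC cells, and none of the 3 did in 4 LOC and 4 MOC cells.

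**Figure D3:**
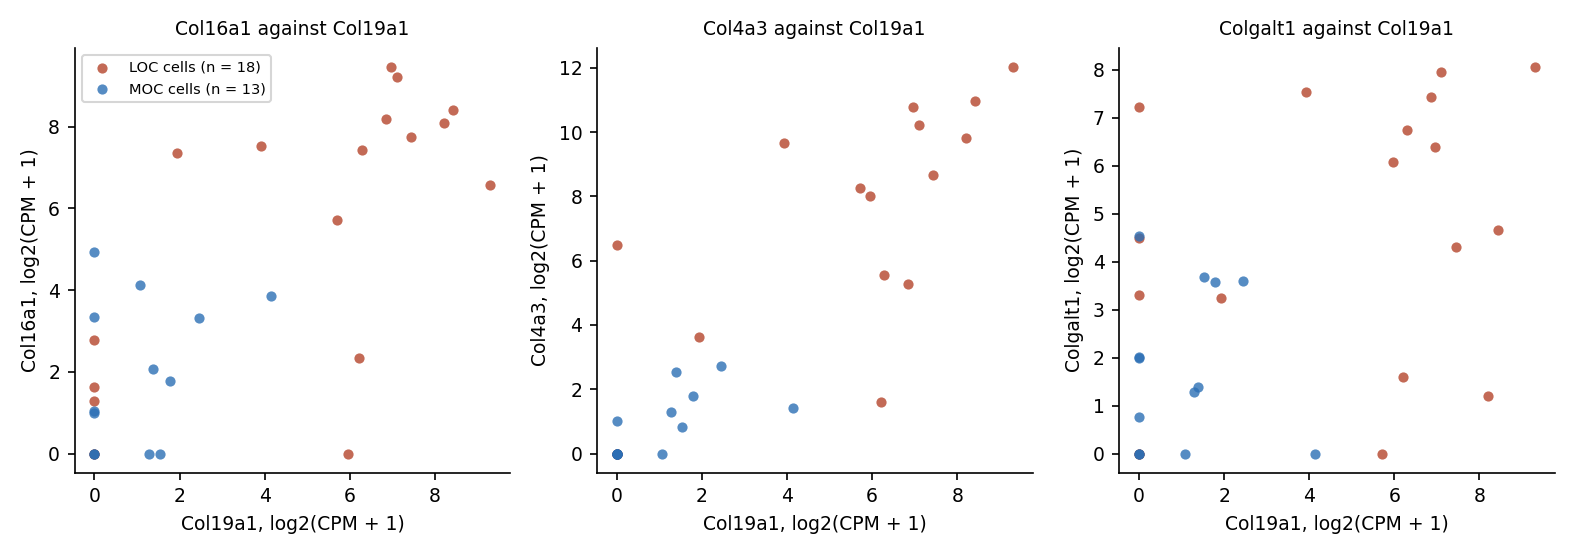
Each point is 1 cell (LOC red, MOC blue), with log2(CPM + 1) of Col19a1 on the horizontal axis and of Col16a1, Col4a3 or Colgalt1 on the vertical axis. Cells high in both Col19a1 and Col16a1 are LOC cells (r = 0.70 within LOC), Col4a3 follows Col19a1 more closely (0.80), and Colgalt1 less (0.34).

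The cells with these collagens were mostly those rich in cholinergic reads. Of the 14 LOC cells with 10 or more reads of the 3 cholinergic genes, 11 had at least 5 Col19a1 reads and 10 at least 5 Col16a1 reads, and of the 4 LOC cells with fewer, 1 did for each gene. Among the 8 MOC cells with at least 10 cholinergic reads, 2 had at least 5 Col19a1 reads and 4 at least 5 Col16a1 reads, and of the 5 with fewer, 0 and 1. In the cells with at least 10 cholinergic reads alone, the Col19a1 difference was 4.29. This cut sets only a minimum and does not match the groups. The cells kept had 11 to 1613 such reads in LOC and 10 to 997 in MOC. Over all cells the median was 305.5 reads in LOC and 28 in MOC. Within LOC the summed level of the cholinergic list gave r of 0.73 with Col19a1, 0.63 with Col16a1 and 0.17 with Col11a2, and the library total gave 0.21, 0.12 and 0.05. A low level in a cell and a loss of its contents during aspiration cannot be told apart.

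Collagen transcripts in a patched neuron can also come from vessel and meningeal cells, so their markers are given beside these results. Of 10 fibroblast markers, 0 met the size rule in LOC and 1 (Pdgfra) in MOC, with a median difference of 0.26, and their summed level ran from 2.84 to 1608 CPM in LOC cells and from 2.88 to 1056 CPM in MOC cells. Most of that sum was Apod (387 CPM of the summed counts in LOC, against 355 CPM in MOC), and the other 9 markers summed to between 0 and 126 CPM in LOC cells and between 1.44 and 634 CPM in MOC cells. Decorin (Dcn), a fibroblast proteoglycan, was read in 9 LOC and 4 MOC cells, and lumican (Lum), another, in 4 LOC and 3 MOC cells. The list was split in direction. By summed CPM, LOC led MOC for Dcn (6.52 against 1.39), Ogn (4.28 against 0.220), Fbln1 (4.28 against 1.61) and Serping1 (5.82 against 1.39). MOC led LOC for Pdgfra (15.4 against 4.56), Igfbp2 (35.3 against 9.12), Slc6a13 (40.4 against 0.842) and Islr (1.25 against 0.210). The mean difference of Dcn was 0.95, just below the limit of the rule. The 10 endothelial markers summed to between 2.11 and 105 CPM in LOC cells and between 3.34 and 209 CPM in MOC cells, and 0 met the rule in either group. The 10 mural cell markers are those of pericytes and vessel muscle. They summed to between 0 and 83.2 CPM in LOC cells and between 0.754 and 59.1 CPM in MOC cells, again with 0 meeting the rule. Tagln was at 0 in every LOC cell, but Rgs5 was read in 10 LOC and 8 MOC cells. Notch3 was read in 9 LOC and 9 MOC cells. Within LOC the fibroblast, endothelial and mural lists gave r of 0.05, −0.27 and 0.25 with Col19a1 and of −0.12, −0.30 and 0.62 with Col16a1. Within MOC the mural list gave 0.56 with Col16a1. With Col11a2 the 3 lists gave −0.02, 0.28 and 0.32 within LOC, and 0.16, 0.30 and 0.18 within MOC. The 9 fibroblast markers without Apod gave −0.16 with Col19a1 and −0.21 with Col16a1 within LOC. The part of mural cells in the Col16a1 reads was not tested.

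MOC libraries carried more microglial reads at the median (696 CPM, against 215 CPM in LOC), though the groups overlapped. The median of the astrocyte list was 2895 CPM in LOC and 3868 CPM in MOC. For oligodendrocytes it was 32199 and 44061 CPM, and for oligodendrocyte precursors 147 and 306 CPM. Of these other glial markers, Sox9 met the size rule in LOC, and Aldh1l1, Opalin and Olig1 met it in MOC. The 10 microglial markers summed to between 31.1 and 2172 CPM in LOC cells and between 40.7 and 11107 CPM in MOC cells. Without the 3 libraries highest in them (MOC cells 7, 8 and 12), the same 3 members met the rule in LOC, and the Col19a1 difference was 3.65. Within LOC, r with the microglial list was −0.50 for Col19a1, −0.45 for Col16a1 and −0.20 for Col11a2, and within MOC it was 0.05, −0.01 and 0.67. MOC cell 8, the highest in microglial markers at 11107 CPM, is also the cell with 67.6% of the MOC reads of Col11a2. It was the highest of all cells in endothelial markers too (209 CPM), and in 5 markers of inhibitory olivary neurons (2992 CPM). The 3 cholinergic genes had 0 reads in it. The part of any of these cell types in its Col11a2 reads was not tested.

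The fibrillar genes, 11 of the 34, had 1 member that met the rule in LOC (Col11a2) and 0 in MOC, with a median difference of 0.03. Col11a1, whose chain joins that of Col11a2 in collagen XI, had 25.5 CPM in LOC, against 12.5 CPM in MOC, with a difference of only 0.23 between the cell means, and without LOC cell 1 the LOC level was 14.9 CPM. Both partner genes were read in 13 LOC and 7 MOC cells, but their levels did not vary together (r = 0.07 over the 31 cells). Col1a1 and Col1a2, the chains of collagen I of bone, skin and vessel walls, had 6.73 and 9.61 CPM in LOC, against 4.33 and 6.60 CPM in MOC, with differences of 0.22 and −0.39. Col1a2 was read together with Col1a1 in 7 LOC and 9 MOC cells (r = 0.36 and Spearman's rho 0.37 over 31 cells). It was read together with Col3a1, the chain of collagen III, in 6 LOC and 3 MOC cells (r = 0.59 but rho 0.29). LOC cell 16 held 36.5% of the LOC reads of Col1a2 and 45.1% of those of Col3a1. For Col27a1, whose product serves growing cartilage and which was read in 16 LOC and 11 MOC cells, the difference was 0.32. Col24a1, read in 6 of 18 LOC cells at 1.12 CPM and 9 of 13 MOC cells at 2.35 CPM, had the lowest difference of all members, −0.66.

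Several large ratios of summed counts toward MOC rested on 1 cell each. Col18a1, whose chain is cut to release endostatin, a fragment that inhibits vessel growth, had 7.08 CPM in LOC, against 45.9 CPM in MOC, but MOC cell 2 held 88.2% of the MOC reads and without it the MOC level was 5.81 CPM. Col5a3, a chain of collagen V, had 3.37 CPM in LOC, against 20.5 CPM in MOC, where MOC cell 5 held 93.6% of the reads and the level without it was 1.38 CPM. Col5a1, the main chain of collagen V, had 7.57 CPM in LOC, against 20.2 CPM in MOC, where MOC cell 13 held 72.8% of the reads and the level without it was 5.80 CPM. In LOC, cell 16 held 42.6% of the Col18a1 reads, cell 7 58.3% of those of Col5a3 and cell 8 53.7% of those of Col5a1. Without these cells the LOC levels were 4.22, 1.44 and 3.71 CPM. Col18a1, Col5a3 and Col5a1 had mean differences of −0.31, −0.65 and −0.39 and did not meet the rule. Col7a1, which encodes the anchoring fibril collagen of skin, leaned toward LOC in summed counts only. It had 12.1 CPM in LOC, against 4.62 CPM in MOC, with LOC cell 15 holding 68.8% of the LOC reads and 4.05 CPM left without it. The mean difference of Col7a1 was −0.26, toward MOC. Its median was 0.712 CPM in LOC cells and 2.76 CPM in MOC cells, with a read in 9 LOC and 10 MOC cells. Exons of Col5a1 (108 reads in LOC and 276 in MOC) overlap those of 2 transcripts on the other strand, 2810430I11Rik over 99 bases (19 reads in LOC and 207 in MOC) and Gm13372 over 113 bases (1 and 0 reads). Reads in the shared bases cannot be told apart, so the Col5a1 difference is uncertain.

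**Figure D4:**
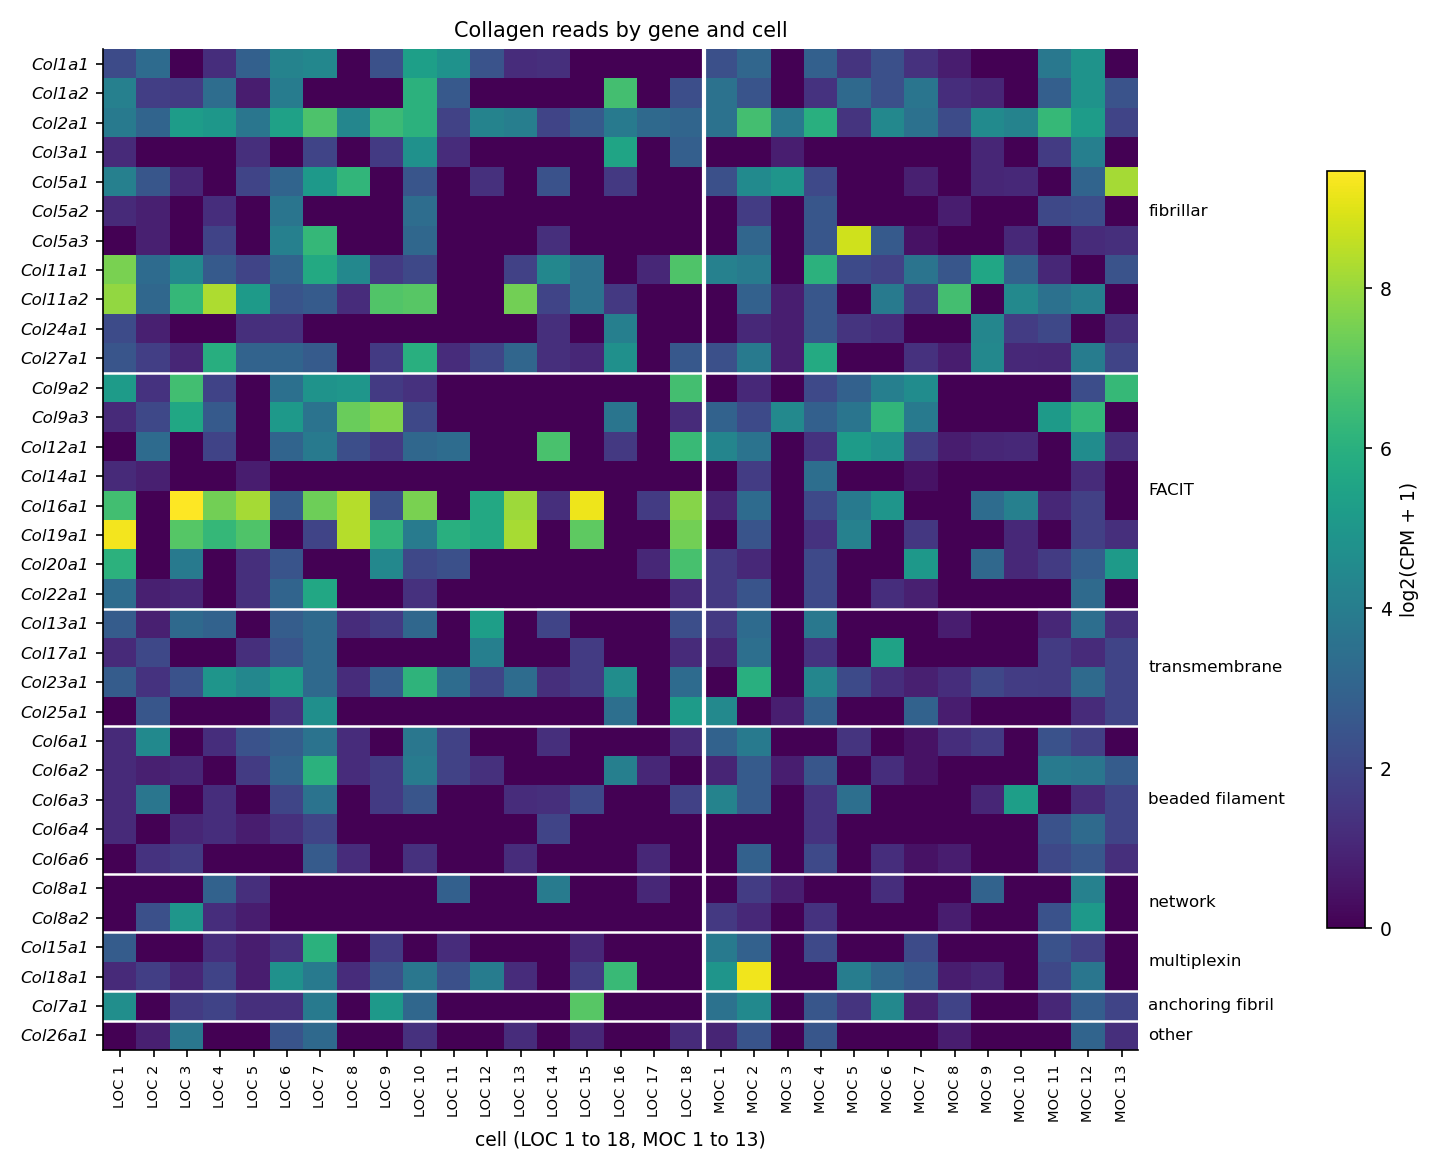
Each row is 1 of the 34 genes, grouped by collagen class, and each column 1 cell (LOC cells 1 to 18, then MOC cells 1 to 13), with colour for log2(CPM + 1). Bright rows in LOC are Col16a1 and Col19a1, Col2a1 is read in every cell, and the bright single squares in MOC are Col18a1 in cell 2, Col5a3 in cell 5 and Col5a1 in cell 13.

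Among the 8 FACIT genes, the other 6 did not meet the size rule. Within LOC, Col9a2 gave r of 0.31 with Col19a1 and 0.44 with Col16a1, and Col20a1 gave 0.39 with Col19a1 and 0.12 with Col16a1. In the same order, Col9a3 gave 0.02 and 0.04, Col12a1 −0.37 and −0.29, Col14a1 0.14 and −0.03, and Col22a1 −0.12 and 0.21. Col9a2 and Col9a3, 2 of the 3 chains of collagen IX, which coats collagen II fibrils in cartilage, had 17.3 and 21.7 CPM in LOC and 10.1 and 17.3 CPM in MOC, with differences of 0.32 and −0.56. Both were read in 10 of the 11 LOC cells that had either (r = 0.51 within LOC), and in 6 of the 10 such MOC cells (r = 0.14 within MOC). Exons of Col9a3 overlap those of Tcfl5 on the other strand. Col12a1, a FACIT collagen of tendon and ligament, had 12.6 CPM in LOC, against 7.33 CPM in MOC (−0.22). Col20a1, which shares exon bases with the transcript BX649560.1, had 12.2 CPM in LOC, against 9.46 CPM in MOC (−0.14). Col14a1 and Col22a1, the remaining FACIT genes, had few reads. Col19a1 gave r between −0.44 and 0.39 within LOC with the 31 members other than itself, Col16a1 and Col11a2.

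Of the 4 transmembrane collagens, 0 met the rule and Col23a1 came closest. It was read in 17 of 18 LOC cells and 11 of 13 MOC cells, at 12.3 CPM in LOC, against 6.60 CPM in MOC, a ratio of 1.86 and a difference of 0.98, just below both limits. MOC cell 2 held 61.1% of its MOC reads, the MOC level without it was 2.75 CPM, and the rule was met when LOC cell 2, MOC cell 2 or MOC cell 4 was left out. Col13a1, which helps nerve-muscle synapses mature in mice, had 4.49 CPM in LOC, against 2.13 CPM in MOC (0.57). Col25a1, which motor axons need to grow into muscle in mice, was read in 5 LOC cells (3.44 CPM) and 7 MOC cells (3.52 CPM), with a difference of −0.20. Col17a1, a collagen of the hemidesmosomes of skin, was read in 8 LOC cells (1.89 CPM) and 7 MOC cells (3.52 CPM), with a difference of −0.29.

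The 5 beaded filament genes of collagen VI, a filament collagen at the surface of many cells, summed to 11.6 CPM in LOC, against 12.6 CPM in MOC. Col6a1, Col6a2, Col6a3 and Col6a6 had differences of 0.17, 0.12, −0.40 and −0.44, and none met the rule. The 9 members not described one by one (Col3a1, Col5a2, Col6a4, Col8a1, Col8a2, Col14a1, Col15a1, Col22a1 and Col26a1) were read in 7 to 14 of the 31 cells each, with 13 to 73 reads in all. Their differences lay between −0.43 and 0.55, and at this depth no difference could be shown for them.

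Col2a1, the chain of the main cartilage collagen, was the only member with a read in all 31 cells, as were 1030 genes in all. It had 22.2 CPM in LOC (19.9 to 24.8), against 25.5 CPM in MOC (22.9 to 28.3), and log2(CPM + 1) averaged 4.16 ± 1.44 in LOC and 4.13 ± 1.65 in MOC, a difference of 0.03. The groups overlapped over most of their range.

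The next shares split the members by the size rule in LOC, so that a higher share there follows from the choice of the 3 genes and is a description only. Col19a1, Col16a1 and Col11a2 held 5346 of 8457 member reads in LOC (63.2%) and 302 of 3500 in MOC (8.63%). The 34 genes summed to 593 CPM in LOC, against 257 CPM in MOC, and the other 31 summed to 218 CPM in LOC, against 235 CPM in MOC. In 8 of the 18 LOC cells and 1 of the 13 MOC cells, the 3 genes made up most of the member CPM. A cell had reads of 7 to 28 members in LOC (median 19) and of 10 to 32 members in MOC (median 21). Scaled by exon length, the order of levels in LOC was Col16a1 (28.1 CPM per kb), Col19a1 (18), Col11a2 (8.91), Col9a3 (5.64) and Col9a2 (5.60). In MOC it was Col18a1 (6.54 CPM per kb, from the 1 cell named above), Col9a3 (4.49), Col9a2 (3.27), Col5a3 (3.02, also from 1 cell) and Col2a1 (2.76), with Col16a1 in place 11 (0.739) and Col19a1 in place 26 (0.256). Col16a1 and Col19a1 in LOC, and likewise Col9a3 and Col9a2, lay closer together than the spread between cells.

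Among 10972 genes that were read in 50% of the cells or more, 5 followed Col19a1 most closely over the 31 cells. They were Col4a3, a collagen IV chain of basement membranes (r = 0.86, and 0.80 within LOC), Anxa2, which encodes annexin A2, a calcium-dependent membrane-binding protein (0.80 and 0.80), the long noncoding RNA Rmst (0.79 and 0.78), the long noncoding RNA 5330434G04Rik (0.79 and 0.91) and Ucn, which encodes the peptide urocortin (0.77 and 0.67). Col4a3 had 707 CPM in LOC, against 1.10 CPM in MOC, and 5330434G04Rik had 148 CPM in LOC, against 45.6 CPM in MOC. By rank correlation over 31 cells, 2 of these 5 (Col4a3 and 5330434G04Rik) were again among the top 5, and within LOC cells alone only 5330434G04Rik was. Over all 31 cells such an r also reflects the difference between the groups.

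The genes that make, cut, bind and break down collagen were described by 4 lists of 60 genes, of which 54 were measured. The list of 22 assembly and modification genes had 1 member that met the rule in LOC, Colgalt1, and 2 in MOC, Plod1 and P3h1, with a median difference of 0.07. Colgalt1, the enzyme that adds galactose to hydroxylysine of collagen, had 0, 23.0 and 266 CPM as the lowest, median and highest level in LOC cells, against 0, 1.61 and 22.3 CPM in MOC cells. Its summed level was 83.1 CPM in LOC, against 5.87 CPM in MOC, and its mean difference 2.70. Exons of Colgalt1 overlap those of Unc13a on the other strand over 495 bases. Unc13a had 1482 reads in LOC and 808 in MOC, and reads of the 2 genes cannot be told apart in the shared bases. Across cells Colgalt1 gave r of 0.49 with Col19a1 over 31 cells and 0.34 within LOC.

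Plod1, a lysyl hydroxylase, had 29.0 CPM in LOC, against 72.2 CPM in MOC (−1.22), and MOC cell 8 held 46.4% of the MOC reads. P3h1, a prolyl 3-hydroxylase, had 13.3 CPM in LOC, of which LOC cell 3 gave 91.5% of the reads, and 42.7 CPM in MOC (−1.67). Of the 14 measured genes of procollagen cutting and cross-linking, 0 met the rule in LOC and 2 did so in MOC, the propeptide-cutting proteases Adamts2 (3.02 CPM in LOC and 7.33 in MOC, −1.33) and Adamts14 (1.19 in LOC and 3.23 in MOC, −1.03). Of the 11 measured collagen receptors, 0 met it in either group (median −0.48). Of the 7 measured collagenases and inhibitors, 0 met it in LOC and 1 in MOC, Timp3, a matrix-bound inhibitor of collagenases (4.42 CPM in LOC and 12.3 in MOC, −1.64). LOC cell 4 held 81.0% of the LOC reads of Timp3, and its exons overlap those of Syn3 on the other strand. Over the 4 lists this makes 1 gene in LOC and 5 in MOC among 54 (1.85% and 9.26%), beside 6.07% and 5.67% of all measured genes.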

How the data were processed

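Single neurons were profiled by Smart-seq2 and Nextera libraries without strand, read in pairs of 75 bp. The authors deposited raw read counts per gene for 55421 mouse genes and 19 added sequences, 1 column per cell. They also deposited normalized signal values for 20784 genes, which the file's name calls CPM with TMM. These chose the members and served as an alternative scaling. Per the submitters' processing notes, the tools include STAR 2.5.2 and the builds are GRCm38 and mm10. For the counting tool and the annotation release the sources used here give no name. Symbols matched 55184 identifiers, and coordinates come from GENCODE M21 (GRCm38).

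CPM used the total over mouse genes. Groups were summed for CPM with exact 95% Poisson intervals, where 3 counts over the group were the lowest value in a ratio, and shares of cells have Clopper-Pearson intervals. The mean, SD and difference (LOC minus MOC) are of log2(CPM + 1), a scale that understates differences of low genes. A gene was measured if 25% or more of a group's cells had a read, true of 17754 genes of the 37546 with any read and of all 34 members. With no animal named in the labels, each group is 1 sample, so no test was run. No 2 libraries were identical. Named were Col19a1, members that met the size rule or were read in 50% or more of a group's cells (25 members), up to 4 genes per pathway list and the 5 genes most like Col19a1. Promoters came from RefSeq, which held 26 of the 34 members. The members, gene lists and rules were chosen with earlier results of these data known. Computation used Python 3.11.15, pandas 2.3.3, numpy 2.4.6 and scipy 1.17.1. It was tested on simulated counts of genes at higher levels than most members, so members with few reads were not covered.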

Additional observations from a re-analysis of the deposited data

Results flagged for a closer look

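The raw counts table held reads of 4 collagen genes outside collagen IV that the authors' normalized table leaves out, and these are given here because no comparison used them. Col6a5, a collagen VI chain, had 26 reads over the 31 cells, 12 in 8 LOC cells and 14 in 5 MOC cells. Col28a1 had 11 reads, 5 in 3 LOC cells and 6 in 4 MOC cells. Col9a1, the third chain of collagen IX, whose gene lies 9205 bases from Col19a1, had 10 reads in 2 LOC cells and 0 in MOC cells. Col10a1, the collagen of hypertrophic cartilage, had 0 reads in LOC cells and 8 in 4 MOC cells. None of these 4 genes met the size rule, no difference was tested, and with so few reads any difference is uncertain. For Col9a1 the summed level was 0.701 CPM in LOC (0.336 to 1.29), from 2 cells only, against 0 CPM in MOC (0 to 0.271).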

How the results depend on the processing

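Col19a1, Col16a1 and Col11a2 met the size rule in LOC, and no member met it in MOC, with any 1 library left out (3 to 4 members in LOC, 0 to 0 in MOC, the fourth being Col23a1). Leaving out 1 library moved the median over the members between −0.23 and −0.01, the Col19a1 difference between 3.36 and 3.91, and the pathway genes that met the rule to 1 to 3 in LOC and 4 to 7 in MOC. The Col19a1 difference was 3.55 on the authors' scaling, 2.25 with a pseudocount of 10, 5.50 from summed counts and 4.01 after thinning. With summed counts in place of cell means, 5 members met the rule in LOC (Col3a1 and Col7a1 were added) and 3 in MOC (Col5a1, Col5a3 and Col18a1), as did 10 and 13 pathway genes, beside 16.6% and 14.2% of all measured genes. Among the alternatives chosen after seeing the data, cells with at least 10 cholinergic reads gave 5 members in LOC (Col13a1 and Col27a1 were added), 2 in MOC (Col5a3 and Col18a1) and 4 pathway genes in LOC, beside 8.47% of all measured genes in LOC and 6.9% in MOC. Without the 3 libraries highest in microglial markers, 1 member met the rule in MOC (Col24a1) and 3 pathway genes did in LOC, beside 7.37% of all measured genes in LOC and 5.83% in MOC. Pathway genes in MOC were 8 on the authors' scaling (6.78% of all genes), 0 with a pseudocount of 10 (1.18%) and 0 under the stricter rule (0.338%), and those in LOC were 2 after thinning (7.57%). The causes were not tested. Of the 5 genes most like Col19a1, 2 were shared with a rank correlation and 1 within LOC. Over 24 single genes and 37 alternatives each, 0 members that met the rule turned sign, and 13 genes that did not meet it changed sign in some alternative. No paired analysis was possible because the cells share only a number and no test was run.

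Each group is 1 sample of cells from an unknown number of animals, so none of these values says how far animals differ. Levels below about 3 counts cannot be told from 0, which covers most values of the 9 members not described one by one.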

Other observations

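Col2a1, read in all 31 cells, is described by its spread. Its SD of log2(CPM + 1) over the 31 cells was 1.51 at a mean of 4.15. Of 54 other genes read in all 31 cells and within 0.5 of that mean, 15 had a smaller SD, and their median SD was 1.75. The genes whose level followed Col2a1 most closely over the cells were Il17re (r = 0.88), 2810459M11Rik (0.85), Ppp1r14a (0.84), 1700014B07Rik (0.81) and Mir6240 (0.81). For Il17re, a receptor chain of the interleukin 17 family, the coefficient was 0.87 within LOC and 0.91 within MOC. Col2a1 gave r of −0.56 within LOC and −0.10 within MOC with the library total, and of 0.61 and 0.64 with the summed mural cell markers. With the fibroblast list it gave 0.30 within LOC and 0.74 within MOC (0.38 and 0.79 without Apod), with the astrocyte list 0.31 and 0.52, and with the list of oligodendrocyte precursors 0.15 and 0.52. The part of library size and of other cells in the Col2a1 reads was not tested. Col19a1, for comparison, gave 0.03 within LOC with Col2a1.

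Apart from Col16a1 and Col2a1, some other collagen genes gave r above 0.3 in both groups with the endothelial or the mural list. With the mural list these were Col26a1 (r = 0.62 within LOC and 0.39 within MOC), Col13a1 (0.58 and 0.46), Col22a1 (0.48 and 0.54), Col17a1 (0.44 and 0.43), Col5a2 (0.39 and 0.49) and Col6a6 (0.38 and 0.59). With the endothelial list they were Col23a1 (0.66 and 0.36), Col27a1 (0.51 and 0.60) and Col5a2 (0.48 and 0.32). The limit of 0.3 was chosen after the values were seen, and most of these genes have few reads. The share of all measured genes above the same limit was not computed, so these values do not set collagen genes apart.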
